A study of Mus musculus with 6 samples.

Results

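Banp and 7 other genes for BEN-domain proteins (Bend3, Bend4, Bend5, Bend6, Bend7, Nacc1 and Nacc2) were followed in the prefrontal cortex (PFC) of mice after early life stress (ELS). All 8 genes were among the 22000 symbols of the count table, and all 8 passed the filter on low counts that left 13185 genes. The set was put together around Banp, which was chosen by its lower level in ELS mice in the same comparison that is described here. The other 7 were added for their BEN domain and not for their values. The values of Banp between the groups are therefore a description, and nothing is supported with them.

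The samples came from wild-type male C57BL/6N mice dissected at 9 weeks of age. The 3 ELS mice had been housed singly under a filter cap from weaning, and the 3 control mice had been co-housed without the cap. By the paper's methods, both housings lasted up to dissection, and behavior was tested before it. ELS and control mice were drawn from litters of the same mother. The cage and litter of each sequenced mouse, and whether it took part in the behavioral tests, are not given. The effects of isolation and of the cap cannot be told apart. Depth differed between the groups, with total counts of 28405795 to 31061421 for control libraries and 32359353 to 35241743 for ELS libraries, which were the deeper ones without overlap. Control mouse 3 stood apart from the other control mice, since the chi-square of raw counts over genes, divided by its degrees of freedom, was 21.4 and 20.05 against them and 7.20 between those 2, while pairs of ELS mice gave 6.70 to 13.6. Without it, 29 genes were called in place of 2. Levels are given as CPM, the counts scaled to a common library size with TMM factors.

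The BEN domain is a DNA-binding fold shared by a small family of nuclear proteins that mostly act on chromatin and transcription. BANP, also called SMAR1, binds matrix attachment regions and, at unmethylated CpG island promoters, a palindrome called the CGCG element, where it activates widely expressed genes. BEND3 acts in heterochromatin, ribosomal DNA silencing and Polycomb-marked promoters, while NACC1 and NACC2 join a BTB domain to the BEN domain and recruit histone deacetylase corepressors. BEND5 and BEND6 carry little beyond the BEN domain, and BEND6 is known in neural progenitors as an antagonist of Notch signaling through CSL (Rbpj).

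The 8 genes differed widely in level in control mice when the CPM was divided by the annotated exon length in kilobases. This length joins the exons of all annotated transcripts of a gene, and the order depends on it. Without it, the control mean of Banp was 30.1 CPM against 10.4 CPM for Bend5. That of Nacc1 was 129 CPM against 152 CPM for Nacc2. Bend6 was the most abundant at 74.7 ± 5.67 CPM per kb (SD, n = 3), above 95.4% of the 12559 tested genes with a length. Nacc1, first described as a gene induced by cocaine in the nucleus accumbens, followed at 30.0 ± 2.32 CPM per kb, and Nacc2 stood at 19.5 ± 0.462 CPM per kb. The ranges of these 3 genes over the 6 mice did not overlap with each other or with the next gene. Bend5 and Banp lay close together, at 4.93 ± 0.229 and 4.53 ± 0.317 CPM per kb, and their ranges over the 6 mice overlapped. Bend3, Bend4 and Bend7 were scarce, at 0.774 ± 0.0508, 0.770 ± 0.187 and 0.517 ± 0.123 CPM per kb. Bend3 and Bend4 could not be ordered by their ranges, nor could Bend4 and Bend7, and Bend7 lay above only 4.84% of genes tested. In ELS mice Banp fell to 2.94 ± 0.0578 CPM per kb while Bend5 stayed at 4.92 ± 0.277 CPM per kb.

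**Figure D1:**
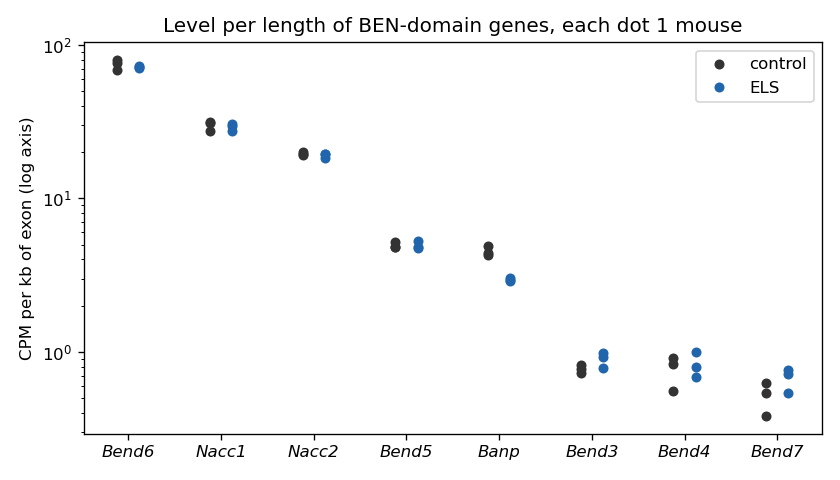
Level of each BEN-domain gene in CPM per kb of exon (log axis), with 1 dot per mouse in control (black) and ELS (blue) mice and genes ordered by control mean. Bend6, Nacc1 and Nacc2 stand apart at the top, Bend3, Bend4 and Bend7 sit near or below 1 CPM per kb, and Banp is the gene whose 2 groups separate.

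Banp (ENSMUSG00000025316.16) is a coding gene on chromosome 8 from 121949750 to 122029258 (plus strand, GRCm38), with 16 annotated transcripts of which 8 are coding. Control mice 1 to 3 gave 999, 824 and 817 raw counts, and ELS mice 1 to 3 gave 643, 676 and 644. The ELS counts were lower although the ELS libraries were deeper. After scaling, control mice had 32.5, 29.2 and 28.5 CPM and ELS mice had 19.3, 19.3 and 20.0 CPM. Every ELS mouse lay below every control mouse, with a gap between the lowest control and the highest ELS mouse that exceeded the range within either group. The ELS mean was 35% below the control mean. The log2 fold change was -0.62 (standard error 0.0809, 95% interval -0.80 to -0.45), which is a level of 0.575 to 0.734 times that of control mice. This value has rank 2 by p among all genes tested (adjusted p = 0.0292, edgeR quasi-likelihood test), which is the value the choice of the gene rests on. Of all genes tested, 0.0152% were called lower in ELS mice, namely Banp and Zbtb16, and in 4.47% the groups were apart with ELS mice lower. DESeq2, the tool family used in the study, called 0.137% of genes and gave Banp a log2 fold change of -0.62. Without control mouse 1, 2 or any 1 of the ELS mice the log2 fold change of Banp lay between -0.64 and -0.56, with adjusted p from 0.115 to 0.259, so the call was lost. Without control mouse 3 it was -0.66 with an adjusted p of 0.00196.

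The coefficient of variation of Banp was 6.99% in control mice, against 3.37% from counting alone at this depth, and 1.96% in ELS mice, against 3.91% from counting alone. The difference in spread between the groups was not tested. In these bulk samples, fewer cells that express a gene and less of its RNA per cell cannot be told apart. Gm27011, annotated as a noncoding RNA from a bidirectional promoter, runs the other way and shares 3.80% of the exon length of Banp. It has no row of its own in the table, so its level beside that of Banp was not tested.

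**Figure D2:**
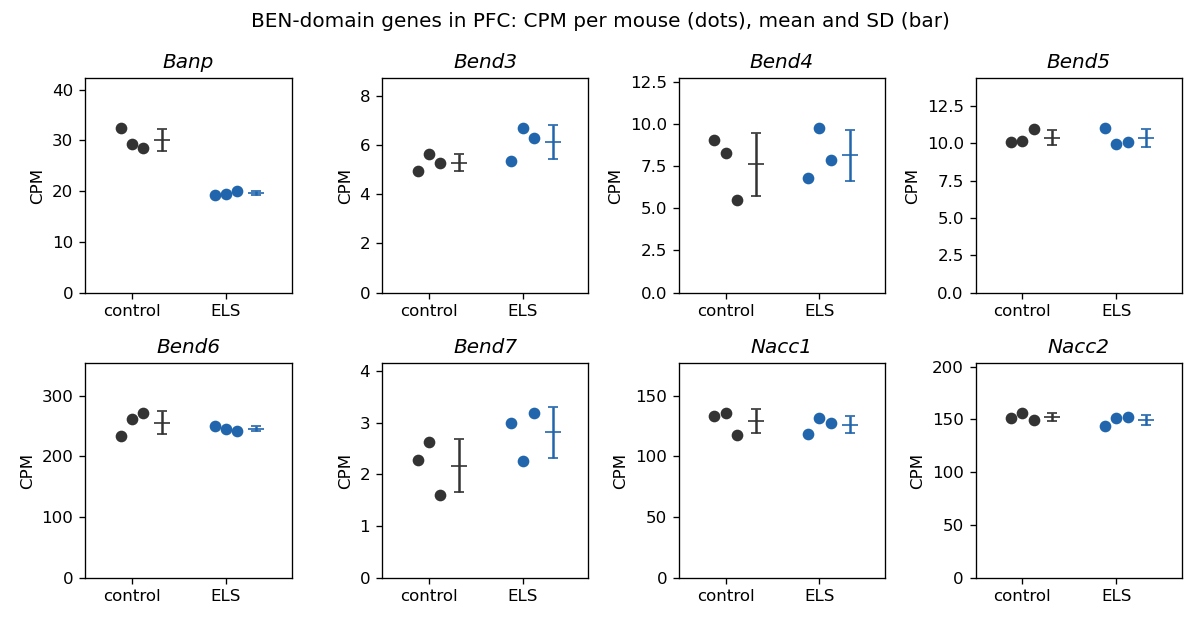
CPM per mouse for the 8 BEN-domain genes in control (black) and ELS (blue) mice, with the group mean and SD as a bar beside the dots and each axis starting at 0. The 3 ELS mice lie below the 3 control mice for Banp, at 19.3 to 20.0 against 28.5 to 32.5 CPM, while the dots of the 2 groups overlap in the other 7 genes.

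None of the other 7 genes was called by edgeR or by DESeq2, and 0 of them had an unadjusted p under 0.05, against 4.23% of all genes tested. All 7 had groups that overlapped, as had most genes tested, with 4.47% apart with ELS mice lower and 3.81% apart with ELS mice higher. Their adjusted p rounded to 1 in edgeR's quasi-likelihood test, so the intervals below say how large a difference these data leave possible.

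The genes that join a BTB domain to the BEN domain did not separate the groups. Nacc1, on chromosome 8 from 84670483 to 84687862 (minus strand), had 133, 136 and 118 CPM in control mice and 118, 132 and 128 CPM in ELS mice. Its log2 fold change was -0.03 (standard error 0.0755, 95% interval -0.20 to 0.13). NACC2 is known to repress Mdm2 through the NuRD complex. Nacc2, on chromosome 2 from 26055535 to 26123220 (minus strand), had 152, 156 and 149 CPM in control mice and 144, 152 and 153 CPM in ELS mice, and its log2 fold change was -0.03 (standard error 0.0633, 95% interval -0.17 to 0.11). For both genes the mice of the 2 groups were interleaved, and a change as large as that of Banp lay outside the interval. An antisense gene shares 6.10% of the exon length of Nacc2, and the strand setting of the counting is not given in the sources used here.

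Bend6, on chromosome 1 from 33852052 to 33907816 (minus strand), had 234, 261 and 272 CPM in control mice and 250, 244 and 242 CPM in ELS mice. The ELS mice fell within the control range, and the log2 fold change was -0.06 (standard error 0.0704, 95% interval -0.21 to 0.09). As for Banp, the ELS mice were the tighter group, with a coefficient of variation of 1.64% against 7.60% in control mice, where counting alone gives 1.10% and 1.16%. Bend5, a BEN-solo gene on chromosome 4 from 111415006 to 111460298 (plus strand), had 10.1, 10.1 and 10.9 CPM in control mice and 11, 9.98 and 10.1 CPM in ELS mice. Its log2 fold change was -0.0015 (standard error 0.103, 95% interval -0.23 to 0.22), and its sign turned with the scaling.

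Bend3, on chromosome 10 from 43478831 to 43515396 (plus strand), had 4.94, 5.63 and 5.27 CPM in control mice and 5.34, 6.69 and 6.30 CPM in ELS mice. ELS mouse 1 lay among the control mice and the other 2 above them, and the log2 fold change was 0.21 (standard error 0.142, 95% interval -0.10 to 0.52). Bend7, a gene of little known function on chromosome 2 from 4717831 to 4802142 (plus strand), had 2.27, 2.62 and 1.61 CPM in control mice and 3.00, 2.26 and 3.19 CPM in ELS mice. ELS mouse 2 overlapped with the control mice, and the log2 fold change was 0.38 (standard error 0.228, 95% interval -0.12 to 0.87), the widest interval of the 8. With a mouse left out it ran from 0.20 (without control mouse 3) to 0.53 (without control mouse 2). Bend4, on chromosome 5 from 67392147 to 67428310 (minus strand), had 9.03, 8.29 and 5.52 CPM in control mice and 6.78, 9.78 and 7.88 CPM in ELS mice. Its mice were fully interleaved, with a coefficient of variation of 24.3% in control and 18.7% in ELS mice, and its log2 fold change of 0.10 (standard error 0.184, 95% interval -0.30 to 0.50) turned negative without control mouse 3 (-0.09) or ELS mouse 2 (-0.06). Genes of the opposite strand share 3.22% (Gm42632, of annotated type TEC) and 1.21% (Gm26756, annotated as antisense) of its exon length. For these 3 scarce genes the intervals also hold increases of over 0.3 on the log2 scale, so a change of that size is not excluded. The lower ends of the intervals of the 7 genes all lay above the upper end of the Banp interval, and the lowest was that of Bend4.

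**Figure D3:**
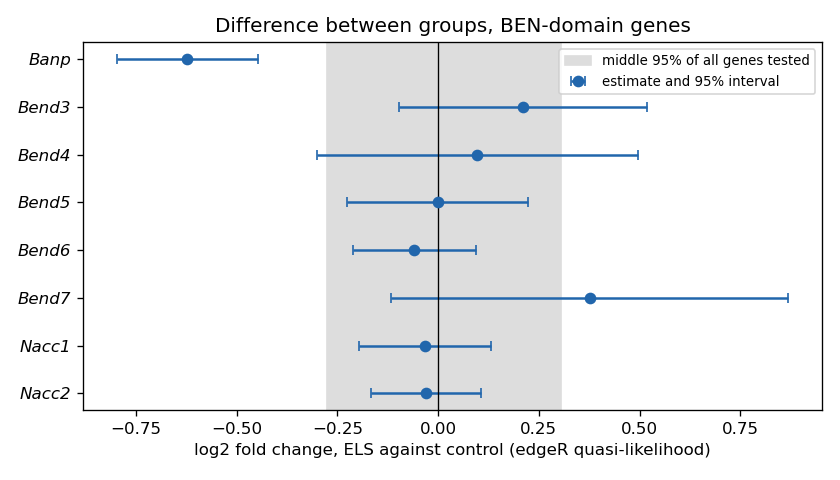
Log2 fold change of ELS against control mice for the 8 genes (edgeR quasi-likelihood fit), with bars for the 95% interval and a grey band for the middle 95% of all genes tested, from -0.28 to 0.30. Banp lies outside the band at -0.62, the intervals of Nacc1, Nacc2, Bend5 and Bend6 lie within it and cover 0, and Bend3, Bend4 and Bend7 have intervals that extend past it.

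Across the 8 genes, 5 had a negative and 3 a positive log2 fold change, with a median of -0.02, beside a median of -0.0046 and 52.5% negative values over all genes tested.

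The fall of Banp was set beside the genes around it on chromosome 8. The nearest tested coding genes before it were Slc7a5, a large neutral amino acid transporter, at 42.1 kb, Klhdc4 at 120 kb and Jph3, a junctophilin of neurons, at 155 kb. Their log2 fold changes were -0.05, -0.05 and -0.05, with standard errors of 0.0697, 0.10 and 0.0892. After it came Zfpm1, a GATA cofactor, at 253 kb, Trhr2 at 328 kb and Zc3h18 at 347 kb, with log2 fold changes of -0.01, -0.33 and -0.03 and standard errors of 0.0895, 0.227 and 0.0720. None of the 6 was called or had an unadjusted p under 0.05, with the smallest p of 0.168 for Trhr2 in edgeR's quasi-likelihood test. Trhr2, a receptor gene for thyrotropin-releasing hormone, was near the filter, and its 3 ELS mice (1.22 ± 0.139 CPM, SD) were all below its 3 control mice (1.54 ± 0.167 CPM, SD), as in 4.47% of all genes.

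**Figure D4:**
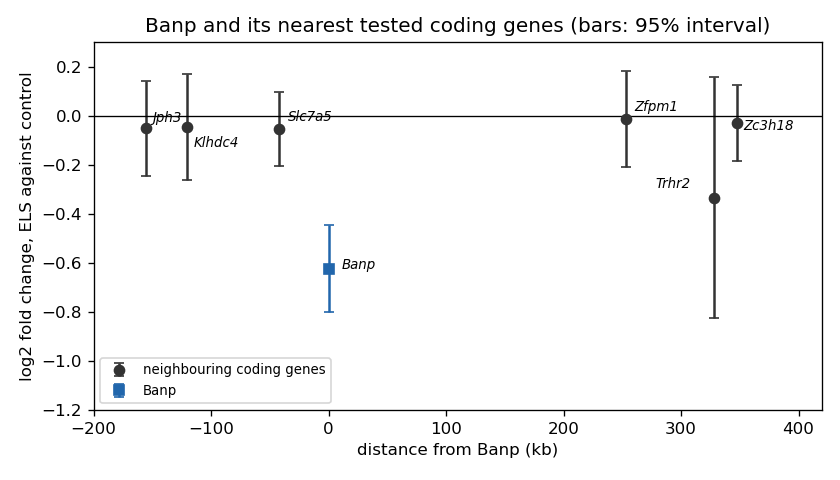
Log2 fold change of ELS against control mice for Banp (blue square) and the 3 nearest tested coding genes on each side (black), plotted against the distance between gene ends in kb (negative before Banp), with 95% intervals. The 6 neighbours have intervals that cover 0, and only that of Trhr2 reaches as low as the Banp estimate of -0.62.

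Genes with a pattern most like that of Banp over the 6 mice were found by the root mean square difference of mean-centred log2(CPM + 1). They included Zfp36, an mRNA decay factor, at 0.0898, Nr4a1, an activity-induced nuclear receptor, at 0.106, Cys1, a gene of the primary cilium, at 0.112, and Sik1, a salt-inducible kinase, at 0.115. The median distance over all genes was 0.316. The added 1 shrinks differences in scarce genes such as Zfp36, with means of 3.82 CPM in control and 2.09 CPM in ELS mice. The log2 fold changes in the edgeR fit were -0.87 for Zfp36, -0.46 for Nr4a1, -0.53 for Cys1 and -0.50 for Sik1. In each of these 4 the ELS mice were all below the control mice, as the measure itself favors, and none was called in edgeR's quasi-likelihood test, with adjusted p from 0.288 to 0.488. DESeq2, which called 0.137% of all genes, called 3 of them, Nr4a1 (adjusted p = 0.00275), Cys1 (0.0490) and Zfp36 (0.0499), and gave Sik1 an adjusted p of 0.0836. These p-values rest on the same 6 mice that the measure used, so they are a description. Ranking by Spearman correlation over the 6 mice instead gave 15 genes that followed the order of Banp exactly, and 0 of these 4 were among them. With so few mice, unrelated genes can share an order too, and how many would do so was not computed.

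The CGCG element was then used to describe genes that carry the sequence bound by BANP, a feature that played no part in choosing the 8 genes. The element, TCTCGCGAGA, is its own reverse complement, is also the consensus of Kaiso (Zbtb33), and was searched in the 250 bases before and 50 after each start of RefSeq genes (GRCm38.p6). It was in 0.466% of the 32851 promoters, and 75.4% of the tested genes had an entry. Promoters of 5 of the 8 BEN-domain genes were listed, and Banp, Bend7 and Nacc1 had no entry. None of the listed promoters of Bend3, Bend4, Bend5, Bend6 and Nacc2 held the element, the BEN-solo palindrome CCAATTGG (in 0.435% of promoters) or the NRF1 motif GCGCNTGCGC (in 4.60% of promoters, both strands). The short core CGCG, with overlaps counted, was in the upstream 250 bases of 6 of their 8 listed promoters, against 33.8% of all promoters. It occurred 9 and 12 times before the overlapping starts of Bend6, 11 times before 1 start of Nacc2, 6 times before 1 start of Bend3, 2 times in Bend4 and once in Bend5. The windows of Bend6 share bases and so are not separate. The 6 windows with the core had a GC content of 56.0% to 83.6%, and the others 49.6% and 57.2%. The median over all upstream windows was 52.4%. The part of GC content in the share with the core was not tested.

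The 5 most abundant genes with the CGCG element in PFC were Arf3, Slc25a4, Tcf25, Scamp5 and Ube2d3, and their sites are shown to make plain what was searched. Each line gives the element in capitals with 10 bases on each side, 5′ to 3′ on the strand of the gene.
Arf3, chr15:98763242-98763271 (minus strand): tggtgatgggTCTCGCGAGAactgccgctc
Slc25a4, chr8:46211062-46211091 (minus strand): tccctcctccTCTCGCGAGAcgccgagccg
Tcf25, chr8:123373675-123373704 (plus strand): agggcccgacTCTCGCGAGAgctccctggg
Scamp5, chr9:57468101-57468130 (minus strand): agtgtgggagTCTCGCGAGAgtggttgcag
Ube2d3, chr3:135438314-135438343 (plus strand): gccacgaggtTCTCGCGAGAtccgccacct

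Arf3, a small GTPase of the Golgi, had 1167, 1117 and 1045 CPM in control mice and 1077, 1194 and 1152 CPM in ELS mice. Slc25a4, the mitochondrial ADP/ATP carrier, had 692, 705 and 784 CPM in control mice and 734, 698 and 738 CPM in ELS mice. In both the groups overlapped, and the log2 fold changes were 0.04 and -0.0077, with standard errors of 0.0676 and 0.0679. The log2 fold changes of Tcf25, Scamp5, a synaptic vesicle protein, and Ube2d3, a ubiquitin-conjugating enzyme, were -0.04, -0.0072 and -0.0045.

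Of the 142 genes with the element, 103 were tested. Their median log2 fold change was -0.0066, with quartiles at -0.05 and 0.04, beside -0.0046 for all genes tested and -0.0075 for the 1107 tested genes with the NRF1 motif, another CpG-containing promoter motif. All genes tested had wider quartiles, at -0.06 and 0.05, and a lower median level, 30.5 CPM in control mice against 48.6 CPM for genes with the element. The sign of the first median turned with the scaling, and over all alternatives run it stayed between -0.013 and 0.0053. Negative values made up 53.4% of the 103 genes and 52.5% of all genes. None was called by edgeR or by DESeq2, and 3 had an unadjusted p under 0.05, which is 2.91% against 4.23% of all genes. The count of 0 calls has little content, since neither of the 2 genes called by edgeR and 13 of the 18 called by DESeq2 had a promoter entry, and 1.04% of tested genes with an entry held the element. The ELS mice were all lower in 5 of the 103 genes, a share of 4.85% beside 4.47% of all genes. Chosen after their values were seen, they are Tcf25, Rbm39, Srsf10, Uhrf2 and Nudt1, and in Dis3 alone every ELS mouse was above (0.971%, against 3.81% of all genes). The 3 with an unadjusted p under 0.05 were Uhrf2, Atf7 (-0.22) and Fbn1, which at 0.57 had the largest difference of the 103, in the opposite direction, with overlapping groups. Among those that did not overlap, the largest were Nudt1 (-0.29) and Uhrf2 (-0.24), with adjusted p of 0.99998 and 0.970 in edgeR's quasi-likelihood test. For the BEN-solo palindrome, 67 genes were tested, with a median log2 fold change of 0.0099 and 0 calls by either tool.

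**Figure D5:**
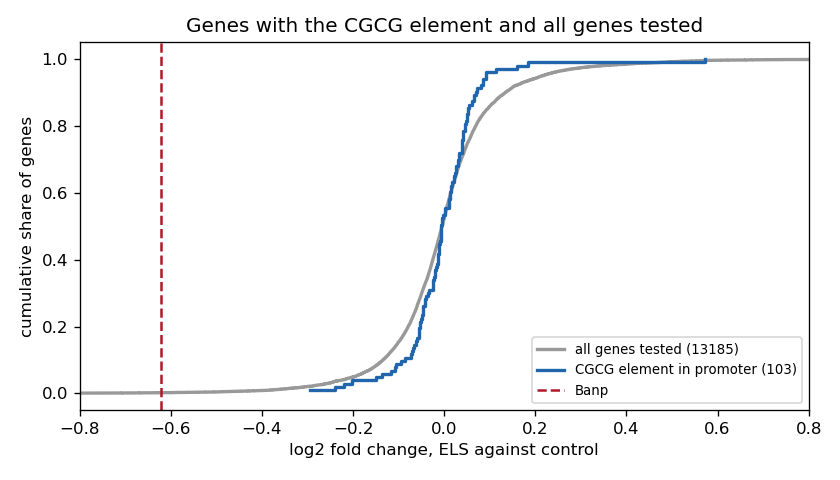
Cumulative share of genes by log2 fold change of ELS against control mice, for all 13185 genes tested (grey) and the 103 tested genes with the CGCG element in a listed promoter (blue), with Banp as a dashed line at -0.62 and the axis ending at 0.8 on both sides of 0. The curves cross 0 at nearly the same share, 52.5% and 53.4%, and no gene with the element lies as low as Banp.

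Genes that work with the BEN-domain proteins were described by 7 lists. Together they held 91 tested genes, of which 0 were called by edgeR or DESeq2, where 2 and 18 of all genes tested were. An unadjusted p under 0.05 was found for 4 of the 91, which is 4.40% against 4.23% of all genes. The ELS mice were all lower in 5 of the 91 (5.49%, against 4.47% of all genes) and all higher in 3 (3.30%, against 3.81% of all genes). The 4 and the 3 were all in the Notch and CSL list. Genes for proteins that bind BANP or are recruited by it, among them the histone deacetylases Hdac1 and Hdac2, the corepressor Sin3a and p53 (Trp53), had a median log2 fold change of 0.02 over 8 tested genes, from -0.11 for Cux1 to 0.11 for Hdac2. The corepressor subunits that NACC1, NACC2 and BEND3 recruit had a median of -0.01 over 18 genes, 11 of them negative. Mta1, a NuRD subunit, was among the 2 with the smallest p, at -0.12 (standard error 0.0708), and every ELS mouse was below the control mice.

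For the silencing complexes linked to BEND3, the median was -0.06 over 7 genes, with Baz2a, the NoRC subunit, at -0.12 and the Polycomb cofactor Jarid2 at -0.13. Other activators of CpG island promoters had a median of -0.02 over 15 genes, and the 2 with the smallest p, Zfp143 at -0.24 and E2f1 at -0.15, were lower in all ELS mice, as were 4.47% of all genes. Proteins that, like BANP, bind matrix attachment regions had a median of -0.06 over 10 genes, with Satb1 at -0.18 (unadjusted p = 0.0529 in the edgeR fit) and Safb2 at -0.11. Targets of p53 had a median of -0.06 over 14 genes, between -0.32 for Btg2 and 0.39 for Bbc3.

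The Notch and CSL list, chosen for BEND6, had the largest median of the 7 lists, 0.07 over 23 genes, of which 7 were negative, from -0.28 for Hey2 to 0.52 for Dll4. An unadjusted p under 0.05 was found for 4 of the 23 (17.4%, against 4.23% of all genes), all of them positive, and for 0 of the 68 genes of the other lists. The ELS mice were all higher in 3 of the 23 (13.0%, against 3.81% of all genes) and all lower in 1. The list was chosen with earlier results known, and no gene of it was called by edgeR or DESeq2. Nrarp, a feedback inhibitor of Notch, had 22.5, 25.9 and 25.5 CPM in control mice and 28.9, 28.9 and 31.2 CPM in ELS mice. Hes1, a classical Notch target, had 12.9, 13.4 and 14.3 CPM in control mice and 14.8, 17.2 and 19.1 CPM in ELS mice. All ELS mice were above all control mice in both genes, with log2 fold changes of 0.27 (standard error 0.0829) and 0.33 (standard error 0.107). Neither passed the correction over all genes, with adjusted p of 0.910 and 0.949 in edgeR's quasi-likelihood test. Named after their values were seen, Mfng (0.28) was the other gene of the list with every ELS mouse above, and Notch4 (-0.27) was the one with every ELS mouse below.

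Markers of cell types were measured beside these genes. All 8 neuron markers were tested, with summed levels of 11865 to 12436 CPM in control and 11312 to 12328 CPM in ELS mice. Of the 45 tested markers of neurons, astrocytes, oligodendrocytes, microglia, endothelium and striatal neurons, 0 were called by edgeR or DESeq2 and 1, Cldn5, had an unadjusted p under 0.05 (2.22%, against 4.23% of all genes). Without control mouse 3, 1 striatal marker, Penk, was called, at a log2 fold change of 0.85 (adjusted p = 0.0206, edgeR) against 0.34 with all mice. Median log2 fold changes were -0.0089 for neurons, -0.02 for astrocytes, -0.01 for oligodendrocytes, 0.11 for microglia, 0.07 for endothelium and 0.18 for striatal neurons. The striatal sum ran from 245 to 471 CPM in control and from 291 to 449 CPM in ELS mice, so the groups overlapped. The part of cell makeup in the lower Banp level was not tested.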

How the data were processed

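An RNA-seq library was made from the PFC of each of 3 control and 3 ELS mice. The authors trimmed reads, aligned them to mm10 with STAR, and counted the uniquely mapping ones by gene with HTSeq (2.7.1a and 0.9.1 in the submitters' processing notes; the paper names another STAR version). They deposited raw counts, neither normalized nor pooled. The strand setting and annotation release of the counting are not given in the sources used here. The ELS columns carry the letters SI, read as social isolation, and were assigned by this and their number.

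A gene was tested if every mouse of either group had 1 CPM or more (13185 of 22000 symbols). TMM scaling and the quasi-likelihood test of edgeR 4.0.16 (R 4.3.3) were applied across all of them, with Benjamini-Hochberg adjustment and condition as the only term. Calls were made at an adjusted p under 0.05 with a log2 fold change beyond 0.3 in either direction. DESeq2 1.42.0, limma-voom (limma 3.58.1), other scalings and filters, fits with each mouse omitted, and replicate number as a block were alternatives. The quasi-likelihood test and DESeq2 were run on simulated counts, with a limit on false calls set for the quasi-likelihood test alone. The other tests were not checked in this way. Total counts ran from 28405795 to 35241743. Same-group mice differed by more than sampling noise (chi-square per degree of freedom of at least 6.70), so no library was a mere repeat of another. Each mouse was counted as 1 replicate. Control mice shared a cage by design and ELS mice did not, so cage and condition cannot be told apart.

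Positions and exon lengths came from GENCODE M21 (GRCm38, also named mm10) and promoters from RefSeq (GRCm38.p6), by symbol. The members, gene lists and motifs were chosen with earlier results of these data known. Genes named are the 8 members, the 5 genes nearest to Banp in pattern, 3 tested coding neighbours on each side, the 2 smallest p of a list, and the 5 most abundant genes with the CGCG element. Single genes that fall under this rule but are withheld are not reported here. Other genes, among them Zbtb16, Hey2 and Dll4, were named as examples of a list or after their values were seen.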

Additional observations from a re-analysis of the deposited data

How the results depend on the processing

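The log2 fold change of Banp kept its sign in all 18 alternatives, at -0.62 to -0.61 under the other tests, scalings and filters and -0.66 to -0.56 with a mouse left out; the call of Banp, and with it the count of members called, went from 1 to 0 in 5 of those 6 fits (adjusted p up to 0.259). Since its groups do not overlap, leaving out a mouse could hardly turn its sign. Bend5 turned positive with DESeq2 (0.000145, with or without its filters), DESeq2 size factors in edgeR (0.000138), upper-quartile scaling (0.0098), library size only (0.0097) and all genes with a read (0.00067). With a mouse left out it ran from -0.051 to 0.036, Bend4 from -0.089 to 0.24, Nacc1 from -0.10 to 0.0087, Bend3 from 0.14 to 0.30, Bend6 from -0.12 to -0.01 and Nacc2 from -0.047 to -0.0049. The median of genes with the CGCG element was 0.0047 with upper-quartile scaling and 0.0046 with library size only, and ran from -0.013 to 0.0053 with a mouse left out. Calls over all genes ran from 1 to 29, with 18 by DESeq2, 28 by the likelihood ratio test of edgeR, 4 without the CPM filter and 29 without control mouse 3; the cause was not tested. A fit with a replicate block called 7 genes in all and put Banp at -0.62 (adjusted p = 0.0121, edgeR). Deviations of same-numbered mice correlated at -0.164, 0.258 and -0.036, and 2 of the 6 mice correlated best with the mouse of their own number. The labels name different animals and give no litter. The paper drew ELS and control mice from litters of 1 mother. Whether same-numbered mice were littermates cannot be told from these values. The coefficient of variation between mice was above what counting alone gives in both groups for Bend4, Bend6, Bend7, Nacc1 and Nacc2, and below it in 1 group each for Banp, Bend3 and Bend5.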
